A study of Mus musculus with 6 samples.

Results

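The 10 chemokine ligand genes Ccl1, Ccl3, Ccl4, Ccl5, Ccl17, Ccl22, Cxcl2, Cxcl10, Cxcl16 and Xcl1 were followed by gene symbol in RNA-seq of mouse lung group 2 innate lymphoid cells (ILC2s), and all 10 had a row among the 21825 genes of the table. The 6 libraries came from sorted lung ILC2s of BALB/c mice aged 6 weeks, all of which had received 3 intraperitoneal doses of 1 µg IL-33, a cytokine that expands these cells. The sorted cells were cultured for 48 h in 10 ng/mL IL-2 and 10 ng/mL IL-7 with 40 ng/mL TNFa (3 libraries, replicates 4 to 6) or with PBS (3 libraries, replicates 1 to 3). The labels give neither the sorting antibodies nor whether libraries came from separate animals or cultures, and PBS replicate 2 is marked as a repeat; every p-value below therefore reflects variation among libraries that may be technical.

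Chemokines are small secreted proteins that steer leukocytes by binding G protein-coupled receptors, and most are named by the spacing of their first cysteines (CC, CXC, or the lone pair of XCL1). A receptor can take more than 1 ligand, as CCR4 does with CCL17 and CCL22. NF-kB, which TNF activates, and interferon-activated factors are known regulators of many chemokine genes. In the lung, ILC2s are known mainly for type 2 cytokines, and their chemokines for recruiting T cells, eosinophils and dendritic cells.

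Libraries held 25089415 to 32487004 counts with TNFa and 29185442 to 30908757 with PBS, so 1 count was worth 0.0303 to 0.0395 CPM (counts scaled to the same library size and composition). TNFa replicate 5 stood apart from the other libraries, with a score of 90.4 on a first principal component holding 35.6% of the variance, where the others lay between -22.6 and -14.5. The ILC2 genes Il5 (5442 ± 308 CPM with TNFa, 4520 ± 448 with PBS; SD, n = 3 each) and Gata3 (705 ± 52.1 and 978 ± 71.8 CPM) were abundant, and all 12 ILC2 markers had a row, the scarcest, named after its values were seen, being Thy1 with 2.32 to 4.52 CPM. Of these 12, 6 were lower with TNFa without overlap, as were 8.35% of tested genes. Another 2 were higher without overlap, as were 6.85% of tested genes: Il5 and Areg, the latter named after its values were seen. Only 1 of the 12 passed the adjusted test, the costimulatory receptor gene Icos. It had 517 ± 33.1 CPM with TNFa and 888 ± 69 with PBS (SD, n = 3 each, log2 fold change -0.78 ± 0.10, SE, edgeR adjusted p = 0.0363). Markers of other cells were present too: the mast cell protease gene Tpsab1 had 763 ± 53.5 CPM with TNFa and 703 ± 66 with PBS, and the T cell receptor constant gene Trbc2 had 211 ± 22.7 and 242 ± 8.54 CPM. Summed levels were 1390 to 1556 CPM with TNFa and 1323 to 1461 with PBS for 11 mast cell, basophil and eosinophil markers, 386 to 442 and 459 to 492 CPM for 9 T cell markers, 79.4 to 204 and 146 to 176 CPM for 6 B cell markers, and 147 to 207 and 125 to 154 CPM for the 8 of 10 structural cell markers with a row. None of these 4 lists held a gene past the adjusted test. Every gene with a row had counts in some library, so whether the markers without a row were at 0 is not known. The sums hide uneven genes, here the eosinophil genes Prg2 and Epx, named after their values were seen. Prg2 had 13.1, 35.5 and 0 CPM in TNFa replicates 4, 5 and 6, against 0, 2.76 and 0 CPM in PBS replicates 1, 2 and 3. Epx had 6.64, 17.2 and 0 CPM in those TNFa replicates and 0 CPM in each PBS replicate. Of the 10 genes of their list that were tested, 7 had higher and 3 lower estimates. The part of such cells in the ligand values was not tested. In such bulk libraries, fewer cells of a type and less RNA per cell cannot be told apart.

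All 10 ligand genes were scarce. The mean over all 6 libraries ran from 0.532 CPM for Ccl1 to 9.71 CPM for Ccl3, and all 10 lay below 15.1 CPM, the median of the 15719 genes tested; Ccl1 stood at percentile 8.9 and Ccl3 at percentile 44. Cxcl10, Cxcl16, Cxcl2 and Ccl5 had more than 2-fold higher estimates with TNFa, Xcl1 a like estimate with wide error, and Ccl3, Ccl4 and Ccl17 estimates near equality. None of the 10 passed a threshold of 0.05 on the edgeR p-value after Benjamini-Hochberg adjustment over all tested genes, which 16 genes (0.102%) passed, 0.0891% higher and 0.0127% lower with TNFa. Before adjustment 4 of the 10 had p under 0.05, all higher with TNFa, where 3.68% of tested genes were higher and 4.63% lower by that rule. DESeq2 called 1 of the 10, Cxcl10, and 1.49% of the 17151 genes to which it gave an adjusted p, while limma-voom called none of the 10 and 0.07% of tested genes. The 10 genes had a median log2 fold change of 0.88, against 0.00469 over all tested genes, 8 being higher and 2 lower by their estimates. The 10 were chosen with earlier results of these data known, and Cxcl10 entered the edgeR test through its TNFa libraries alone. Counts and medians over the 10 therefore cannot show a response of the ligands as a set. The structural cell markers had a median log2 fold change of 0.81, 5 of the 6 tested being higher by their estimates. Before adjustment, 0 of the 6 were higher and 1 was lower at an edgeR p under 0.05. That 1 was the epithelial gene Epcam, named after its values were seen, with 14.2 ± 1.06 CPM with TNFa and 27.4 ± 1.59 with PBS. It was lower without overlap, as were 8.35% of tested genes (log2 fold change -0.95 ± 0.16, SE, edgeR adjusted p = 0.0879). The ligands and the structural markers both had their highest median log2 CPM in TNFa replicate 5, at 0.93 and 1.12 above the PBS mean. Their sums did not peak there: in TNFa replicates 4, 5 and 6 the ligands summed to 42.3, 39.5 and 43.1 CPM. The structural markers summed to 207, 183 and 147 CPM. The structural marker Scgb1a1 had 81.0, 0.187 and 46.1 CPM in those replicates, against 0.0341, 6.09 and 8.07 CPM in PBS replicates 1, 2 and 3. The part of such cells in the ligand values was not tested. The groups did not overlap for 3 of the 10, all higher with TNFa, a pattern found in 6.85% of tested genes.

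**Figure D1:**
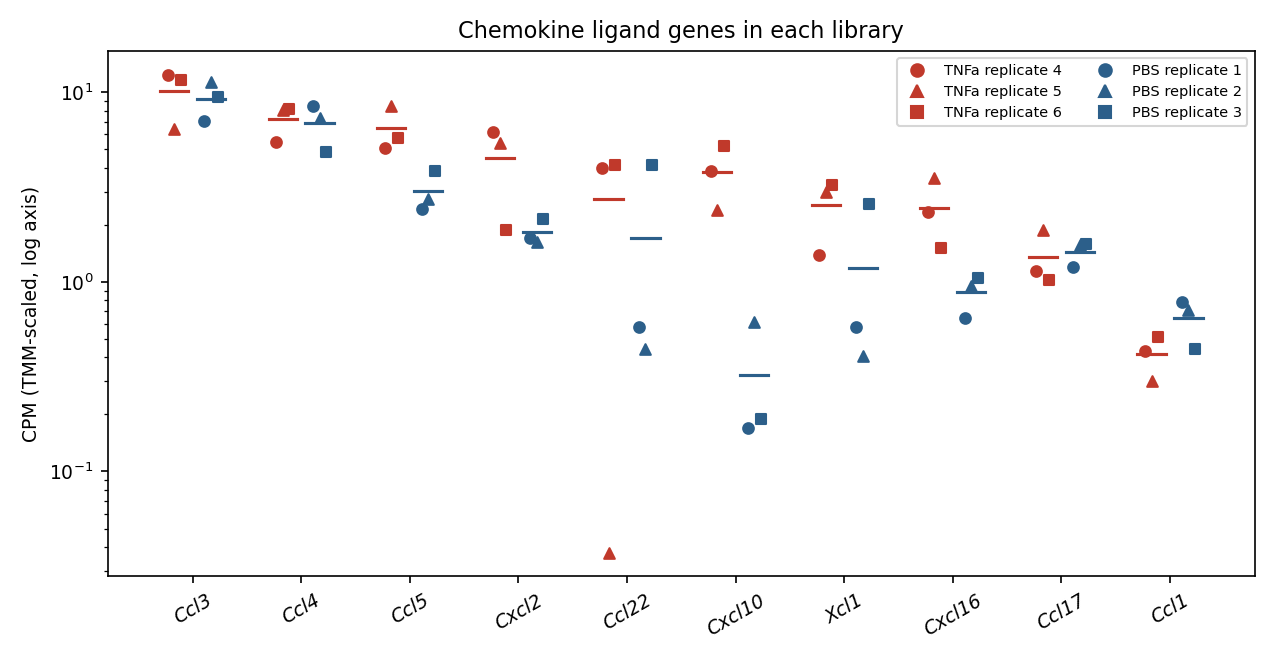
CPM of each ligand gene (log axis) in the 3 TNFa libraries (red, left) and the 3 PBS libraries (blue, right), with a symbol for each replicate and a bar for the group mean. Cxcl10, Ccl5 and Cxcl16 show no overlap between the groups, and Ccl22 falls to 0.0374 CPM in TNFa replicate 5; heights of different genes are not corrected for length.

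**Figure D2:**
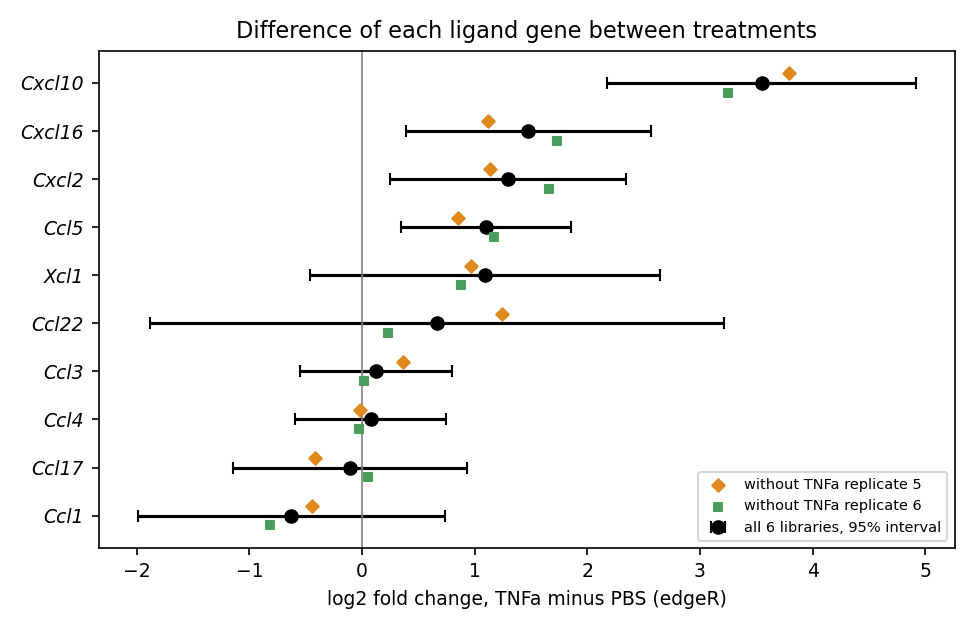
Log2 fold change of each ligand gene, TNFa minus PBS, from edgeR with its 95% interval (black), and the estimate without TNFa replicate 5 (orange) or 6 (green). The interval of Cxcl10 runs from 2.18 to 4.92, and those of Cxcl16, Cxcl2 and Ccl5 also lie above 0.

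Cxcl10, whose product IP-10 attracts CXCR3-bearing T and NK cells, had the largest estimate of the 10 in the 6-library edgeR fit. It lies on chromosome 5 (mm10, 92346638 to 92348889, minus strand, 3 exons), inside the span of Art3 on the other strand. It had 3.83, 2.39 and 5.23 CPM in TNFa replicates 4, 5 and 6, against 0.17, 0.612 and 0.19 CPM in PBS replicates 1, 2 and 3. Every TNFa library was thus above every PBS library; these values are 97, 64 and 173 counts against 5, 18 and 6. The exact 95% Poisson interval of the lowest TNFa library was 1.84 to 3.05 CPM and that of the highest PBS library 0.363 to 0.968 CPM; such intervals cover counting error only. The fold change was 11.7 (95% interval 4.52 to 30.2; log2 fold change 3.55 ± 0.61, SE), with an adjusted p of 0.0967 in edgeR. Without TNFa replicate 5, edgeR's adjusted p was 0.0271, and 0.406% of tested genes were called; with all libraries, DESeq2 gave an adjusted p of 9.2e-06. Over all 11 alternatives that gave a value the adjusted p ran from 9.2e-06 to 0.522 and the log2 fold change from 3.25 to 4.37. Of the 10 ligands only Cxcl10 entered the edgeR test through its TNFa libraries alone, since just 1 PBS library reached the filter's level of 0.337 CPM.

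The promoter windows of Cxcl10, Cxcl2 and Ccl1 are shown because, of the 7 ligand windows on hand, these 3 held a match to the NF-kB consensus; Cxcl10 and Cxcl2 had higher estimates with TNFa and Ccl1 a lower one. Each runs from 250 to 51 bases upstream of the RefSeq start on GRCm38.p6 (C57BL/6J, while these mice were BALB/c), 5′ to 3′ on the gene's strand, and capitals mark matches to the motifs named after them.
Cxcl10, chr5:92348940-92349139, minus strand: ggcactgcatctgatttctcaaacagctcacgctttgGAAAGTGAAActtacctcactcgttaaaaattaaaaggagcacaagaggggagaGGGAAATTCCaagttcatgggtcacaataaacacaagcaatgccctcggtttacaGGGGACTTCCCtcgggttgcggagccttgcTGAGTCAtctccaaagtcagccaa
Cxcl2, chr5:90903649-90903848, plus strand: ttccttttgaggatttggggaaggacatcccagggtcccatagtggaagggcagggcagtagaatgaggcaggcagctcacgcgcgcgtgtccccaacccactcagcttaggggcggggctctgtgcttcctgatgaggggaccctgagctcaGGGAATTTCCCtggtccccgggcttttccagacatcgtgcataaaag
Ccl1, chr11:82179863-82180062, minus strand: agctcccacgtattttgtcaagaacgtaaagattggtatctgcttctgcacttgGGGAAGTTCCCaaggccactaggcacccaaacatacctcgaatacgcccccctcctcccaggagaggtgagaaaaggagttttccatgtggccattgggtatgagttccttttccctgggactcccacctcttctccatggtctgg

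Motifs were searched on both strands of the window from 250 bases before to 50 after the start, which was on hand for 7 of the 10 genes. The NF-kB consensus matched in Cxcl10, Cxcl2 and Ccl1, or 3 of 7, against 8.46% of 32851 such windows. In Cxcl10 it matched 159 to 150 bases upstream and, as overlapping matches, 104 to 94 bases upstream; in Cxcl2 overlapping matches spanned 97 to 87 bases and in Ccl1 196 to 186 bases upstream. The interferon-response motif (GAAA, then 2 bases of any kind, then GAAA) matched in Cxcl10 alone of the 7, 213 to 204 bases upstream, and in 3.44% of all windows. The AP-1 motif TGANTCA also matched in Cxcl10 alone, 74 to 68 bases upstream, and in 7.81% of all windows. The STAT motif TTCNNNGAA matched in Ccl17 alone, 99 to 91 bases upstream, and in 8.3% of all windows. These are letter matches in a reference sequence, and binding was not measured.

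Interferon-response genes were set beside Cxcl10. Of 20 such genes listed, 17 were tested, 16 had a higher estimate with TNFa and none passed the adjusted test; their median log2 fold change was 0.80. For 8 of the 17 the groups did not overlap, all higher with TNFa, as for 6.85% of tested genes. Their median log2 CPM stood 0.67, 0.42 and 1.61 above the PBS mean in TNFa replicates 4, 5 and 6, and 15 of the 17 were highest in replicate 6. Isg15, named after its values were seen, had 7.39 and 7.62 CPM in TNFa replicates 4 and 5, near each other, and 15.1 CPM in replicate 6. In PBS replicates 1, 2 and 3 the interferon median stood 0.079, -0.095 and 0.015 from the PBS mean, where Cxcl10 had 5, 18 and 6 counts. Differences that small do not set an order within PBS. A part of interferon in the Cxcl10 values was not tested. Gbp4, a guanylate-binding protein gene, had 389, 237 and 853 CPM in TNFa replicates 4, 5 and 6, against 225, 209 and 256 CPM in PBS replicates 1, 2 and 3. Igtp and Irgm1, both immunity-related GTPase genes, had log2 fold changes of 0.79 ± 0.28 and 0.80 ± 0.29 (SE, edgeR adjusted p = 0.465 and 0.488). Without replicate 6 the log2 fold change of Cxcl10 was 3.25, with an edgeR adjusted p of 0.311, where 0.0305% of tested genes were called. Of the other CXCR3 ligands, Cxcl11 had 0.666 CPM in TNFa replicate 6, 0.19 CPM in PBS replicate 3 and 0 counts in the other 4 libraries. Cxcl9 had no row.

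**Figure D3:**
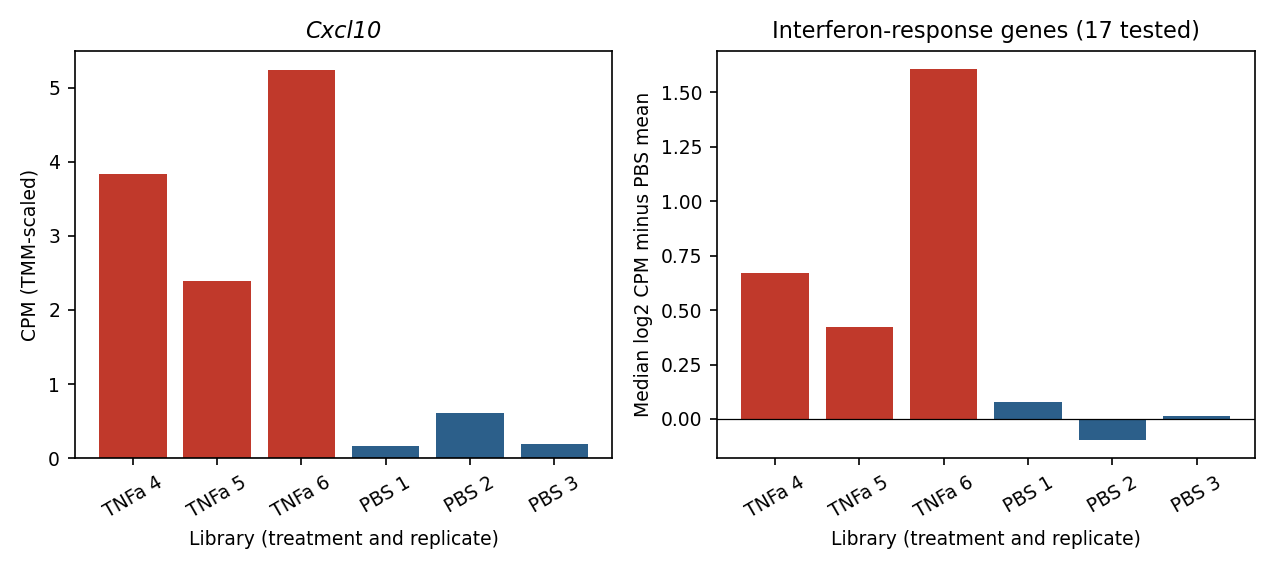
Left, Cxcl10 in CPM in each library; right, the median over 17 interferon-response genes of log2 CPM minus the gene's PBS mean, with TNFa libraries in red and PBS libraries in blue. Replicate 6 is the highest in both panels, at 5.23 CPM and 1.61, and replicate 5 the lowest of the TNFa libraries, at 2.39 CPM and 0.42.

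Cxcl16 encodes a chemokine made as a membrane protein and released by shedding, whose receptor is CXCR6. The gene (chromosome 11, 70453983 to 70459984, minus strand, 5 exons) had 2.33, 3.55 and 1.51 CPM in TNFa replicates 4, 5 and 6, against 0.647, 0.953 and 1.04 CPM in PBS replicates 1, 2 and 3. The groups did not overlap, and TNFa replicate 5 was the highest. The fold change was 2.78 (95% interval 1.31 to 5.92; log2 fold change 1.48 ± 0.49, SE), with an edgeR adjusted p of 0.429. Without replicate 5 the log2 fold change was 1.12 (edgeR adjusted p = 0.476). Its span overlaps Zmynd15 on the other strand, which held no more than 0.237 CPM in any library. The shedding enzyme genes Adam10 (110 ± 18.2 CPM with TNFa, 122 ± 16.4 with PBS) and Adam17 (144 ± 28.7 and 135 ± 16.7 CPM; SD, n = 3 each) had edgeR adjusted p-values of 0.834 and 0.92.

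Cxcl2 encodes a CXCR2 ligand that draws neutrophils. The gene (chromosome 5, 90903871 to 90905938, plus strand) had 6.20, 5.42 and 1.88 CPM in TNFa replicates 4, 5 and 6, against 1.70, 1.63 and 2.15 CPM in PBS replicates 1, 2 and 3. TNFa replicates 4 and 5 were above all PBS libraries, while replicate 6 lay within the PBS range. The fold change was 2.45 (95% interval 1.19 to 5.06), with an edgeR adjusted p of 0.477. The log2 fold change was 1.29 ± 0.47 (SE) with all libraries, 1.14 without replicate 5 and 1.66 without replicate 6. None of its 6 deposited values was whole within 0.01, while Ccl5 and Cxcl16 had 4 whole values of 6 each and the other 7 ligands 6 of 6. An estimated count can split reads between similar genes, so these 3 levels are less certain; where reads were split was not tested. Cxcl3, a close relative that binds the same receptor, had 38.2, 52.6 and 26.9 CPM in TNFa replicates 4, 5 and 6, against 27.8, 24.2 and 25.5 CPM in PBS replicates 1, 2 and 3. There too replicate 6 lay within the PBS range (log2 fold change 0.60 ± 0.22, SE, edgeR adjusted p = 0.497). The neutrophil markers S100a8 (1.24 ± 0.42 CPM with TNFa, 1.06 ± 0.077 with PBS) and S100a9 (0.187 ± 0.2 and 0.787 ± 0.37 CPM; SD, n = 3 each) were near the bottom of the range, and the 4 of 5 neutrophil markers with a row summed to 1.66 to 3.21 CPM with TNFa and 1.94 to 2.66 CPM with PBS.

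The CC ligand genes Ccl3, Ccl4 and Ccl5, whose products attract T cells, monocytes and NK cells, lie together on chromosome 11: 13.2 kb separate Ccl3 from Ccl4, and 117 kb separate Ccl5 from Ccl3. Ccl5 had 5.10, 8.48 and 5.78 CPM in TNFa replicates 4, 5 and 6, against 2.42, 2.76 and 3.83 CPM in PBS replicates 1, 2 and 3. The groups did not overlap, with replicate 5 again the highest. The fold change was 2.15 (95% interval 1.27 to 3.62; log2 fold change 1.10 ± 0.34, SE), with an edgeR adjusted p of 0.393, or 0.0683 in DESeq2. Without replicate 5 the log2 fold change was 0.86 (edgeR adjusted p = 0.4). Its neighbours gave no such split. Ccl3 had 12.4, 6.39 and 11.6 CPM in TNFa replicates 4, 5 and 6, against 7.09, 11.3 and 9.43 CPM in PBS replicates 1, 2 and 3 (log2 fold change 0.13, 95% interval -0.55 to 0.80). Ccl4 had 5.45, 8.11 and 8.20 CPM in TNFa replicates 4, 5 and 6, against 8.49, 7.35 and 4.84 CPM in PBS replicates 1, 2 and 3 (log2 fold change 0.08, 95% interval -0.59 to 0.75). For both the groups overlapped, and the sign of the estimate turned when single libraries were left out. Ccl3 and Ccl4 did not move together from library to library: per kilobase of transcript, the log2 ratio of Ccl3 over Ccl4 was 0.97, -0.56 and 0.28 in TNFa replicates 4, 5 and 6, and -0.47, 0.41 and 0.75 in PBS replicates 1, 2 and 3.

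Ccl5 and Xcl1 are also characteristic products of NK cells and CD8 T cells, whose markers went no single way. Of 10 such markers 8 were tested, 4 with a higher and 4 with a lower estimate and none past the adjusted test. Their summed level was 96.8 to 120 CPM with TNFa and 185 to 228 CPM with PBS, most of it from Gzmb and Gzma. The sum thus says little about the other markers. Gzmb, a granzyme gene, had 87.5 ± 10.5 CPM with TNFa and 153 ± 12.3 with PBS (edgeR adjusted p = 0.0627), and Gzma 13.4 ± 5.93 and 50.4 ± 15 CPM (SD, n = 3 each; edgeR adjusted p = 0.0879). Ncr1, named after its values were seen, had 2.98 ± 0.78 CPM with TNFa and 1.27 ± 0.47 with PBS (edgeR adjusted p = 0.483). It was higher without overlap, as were 6.85% of tested genes. The part of such cells in the Ccl5 and Xcl1 values was not tested.

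Xcl1, which encodes lymphotactin, the ligand of XCR1 on cross-presenting dendritic cells, had 1.38, 2.99 and 3.24 CPM in TNFa replicates 4, 5 and 6, against 0.579, 0.408 and 2.56 CPM in PBS replicates 1, 2 and 3. The gene lies on chromosome 1 (164931644 to 164935527, minus strand). PBS replicate 3 was the only PBS library within the TNFa range. The log2 fold change was 1.09 ± 0.70 (SE, edgeR adjusted p = 0.732); without PBS replicate 3 it was 2.35 (edgeR adjusted p = 0.491).

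The CCR4 ligand genes Ccl22 and Ccl17, whose products draw type 2 helper and regulatory T cells, lie 58.8 kb apart on chromosome 8, and they differed in how they varied. Ccl22 had 3.99, 0.0374 and 4.14 CPM in TNFa replicates 4, 5 and 6, against 0.579, 0.442 and 4.12 CPM in PBS replicates 1, 2 and 3. High and low libraries occurred in both groups, with TNFa replicates 4 and 6 and PBS replicate 3 far above the other 3 libraries. TNFa replicate 5 rests on 1 count, whose exact 95% Poisson interval reaches 0.208 CPM. The spread between libraries was 7.63 times that of counting alone with TNFa and 8.88 times with PBS, the largest such ratio of the 10 genes in each group. The log2 fold change was 0.67 with a 95% interval from -1.88 to 3.21 (edgeR adjusted p = 0.911). It was 1.25 without TNFa replicate 5 and 2.41 without PBS replicate 3, and limma-voom turned its sign. Ccl17 held steadier, at 1.15, 1.87 and 1.03 CPM in TNFa replicates 4, 5 and 6, against 1.19, 1.56 and 1.58 CPM in PBS replicates 1, 2 and 3. The groups overlapped (log2 fold change -0.10, 95% interval -1.14 to 0.93). Per kilobase, the ratio of Ccl22 over Ccl17 was 0.808, 0.00464 and 0.935 in TNFa replicates 4, 5 and 6, and 0.113, 0.0656 and 0.603 in PBS replicates 1, 2 and 3.

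Dendritic cells and macrophages are known sources of CCL17 and CCL22. Of 15 markers of these cells, 14 had a row and summed to 136 to 172 CPM with TNFa and 101 to 170 CPM with PBS. The most abundant of them was Ccr7, a receptor gene also used by lymphocytes, with 97.6 ± 4.42 CPM with TNFa and 55.8 ± 9.23 with PBS (edgeR adjusted p = 0.0995). Chil3 had 33.1, 21.3 and 0 CPM in TNFa replicates 4, 5 and 6, and 22.5, 56.9 and 17.7 CPM in PBS replicates 1, 2 and 3. Named after their values were seen, Ly6c2 had 15.7 ± 6.87 CPM with TNFa and 10.9 ± 1.23 with PBS, the lysozyme gene Lyz2 8.64 ± 5.02 and 16.3 ± 6.73 CPM, and Cd68 5.46 ± 0.66 and 6.39 ± 2.04 CPM (SD, n = 3 each). Also named after their values were seen, the 2 scarcest of the 14 were the dendritic cell receptor gene Flt3, at or under 0.127 CPM in all 6 libraries, and the macrophage receptor gene Mrc1, at or under 0.443 CPM. Named likewise, the dendritic cell genes Zbtb46 and Batf3 had 1.09 ± 0.30 and 0.436 ± 0.28 CPM with TNFa. With PBS they had 0.438 ± 0.26 and 0.160 ± 0.22 CPM (SD, n = 3 each). Of the 12 markers tested, 6 had higher and 6 lower estimates, and none passed the adjusted test. The groups did not overlap for 2, both higher with TNFa, as for 6.85% of tested genes. The part of such cells in the Ccl22 values was not tested.

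Ccl1, whose product is the ligand of CCR8, was the scarcest of the 10. It had 0.435, 0.299 and 0.514 CPM in TNFa replicates 4, 5 and 6, against 0.784, 0.714 and 0.443 CPM in PBS replicates 1, 2 and 3. Those values are 8 to 17 counts with TNFa and 14 to 23 with PBS, and the groups overlapped. The spread within the groups was 0.907 times that of counting alone with TNFa and 1.22 times with PBS. The log2 fold change was -0.63 with a 95% interval from -1.99 to 0.74 (edgeR adjusted p = 0.832).

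Levels of different ligands were compared as CPM per kilobase of the longest coding transcript in GENCODE M21. With TNFa, Ccl3 (13.2 ± 4.26), Ccl5 (12.1 ± 3.37) and Ccl4 (11.0 ± 2.36; SD, n = 3 each) headed the order, and Xcl1 came next at 4.85 ± 1.92. Ccl4 and Xcl1 were the only neighbours in that order whose libraries did not overlap; Cxcl10, Ccl17, Cxcl2, Ccl22, Cxcl16 and Ccl1 followed, from 2.82 ± 1.05 to 0.681 ± 0.18. With PBS, Ccl3 (12.1 ± 2.77) and Ccl4 (10.4 ± 2.82) led. The libraries of Ccl5 (5.64 ± 1.39) did not overlap those of Ccl4 above it or Ccl17 (2.81 ± 0.43) below it, and no later neighbours were separated. The gap to Ccl4 was narrow, as PBS replicate 3 had 7.20 for Ccl5 and 7.34 for Ccl4. Cxcl10 came last with PBS, at 0.24 ± 0.18, whereas with TNFa it followed Xcl1. Together the 10 genes held 48.5, 52.4 and 54.8 CPM per kilobase in TNFa replicates 4, 5 and 6, against 32.9, 38 and 39.1 in PBS replicates 1, 2 and 3, and Ccl3 with Ccl4 made up 46.7% ± 6.38 of that sum with TNFa and 61.9% ± 10.1 with PBS (SD, n = 3 each).

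Replicate 5, the TNFa library that stood apart, was the highest of all 6 for Ccl5, Ccl17 and Cxcl16 and the lowest for Ccl1, Ccl3 and Ccl22. Ccl3 and Ccl4, the most abundant ligands in CPM, were compared with 8750 other genes of at least 10 CPM by the root mean square difference of centred log2 CPM over the 6 libraries. The nearest to Ccl3 were Ipo8 (0.0921), Pdp1 (0.0957) and Dhx37 (0.0984), and the nearest to Ccl4 were Zfp280c (0.0859), Rab29 (0.112) and Dnajc18 (0.112).

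Receptor genes for these ligands were measured in the same bulk libraries, which do not show whether ligand and receptor RNA came from the same cells. Of 12 receptor genes listed, 9 had a row and were tested, and none passed the adjusted test; 2 had higher and 7 lower estimates with TNFa, with a median log2 fold change of -0.26. Cxcr6, the receptor gene for Cxcl16, was far above the rest per kilobase, at 721 ± 73 CPM per kilobase with TNFa and 866 ± 54.4 with PBS (SD, n = 3 each). It had 1464, 1214 and 1445 CPM in TNFa replicates 4, 5 and 6, against 1726, 1532 and 1694 CPM in PBS replicates 1, 2 and 3. The groups did not overlap, lower with TNFa (log2 fold change -0.26 ± 0.11, SE, edgeR adjusted p = 0.534), as in 8.35% of tested genes. Ccr8, which takes Ccl1, had 71.7 ± 6.16 CPM with TNFa and 85.9 ± 0.437 with PBS (SD, n = 3 each; edgeR adjusted p = 0.574). Named after their values were seen, Ccr4, which takes Ccl17 and Ccl22, had 87.9 ± 16.9 CPM with TNFa and 54.2 ± 10.8 with PBS, and Xcr1, which takes Xcl1, had 24.5 ± 1.97 and 37.5 ± 3.41 CPM (SD, n = 3 each; edgeR adjusted p = 0.3 and 0.273).

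**Figure D4:**
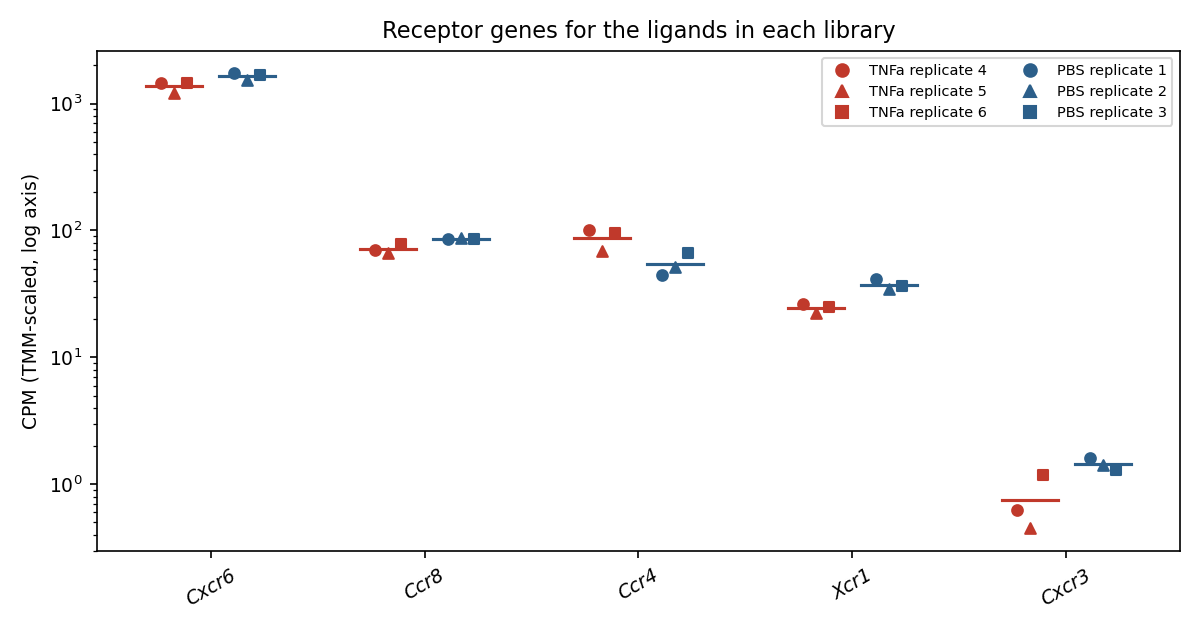
CPM (log axis) of the receptor genes Cxcr6, Ccr8, Ccr4, Xcr1 and Cxcr3 in the 3 TNFa libraries (red, left) and the 3 PBS libraries (blue, right), with a bar for each group mean. Cxcr6 lies between 1214 and 1726 CPM over the 6 libraries, and Cxcr3, which takes Cxcl10, has 0.754 ± 0.38 CPM with TNFa and 1.44 ± 0.15 with PBS (SD, n = 3 each); heights of different genes are not corrected for length.

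Of 31 further chemokine ligand genes, 16 had a row, 10 were tested and none passed the adjusted test, 6 having higher and 4 lower estimates with a median log2 fold change of 0.20. The other 15 had no row. Cxcl3 was the highest per kilobase, at 38.6 ± 12.7 CPM per kilobase with TNFa and 25.4 ± 1.79 with PBS. Ccl9, a mouse CCR1 ligand, had 9.79 ± 2.8 CPM with TNFa and 7.97 ± 1.52 with PBS, and Ccl25, the ligand of CCR9, had 7.37 ± 1.6 and 6.85 ± 3.16 CPM (SD, n = 3 each; edgeR adjusted p = 0.822 and 0.961). Of 19 genes of NF-kB, interferon, STAT and AP-1 factors, 2 passed, both higher with TNFa, where 0.0891% of tested genes were called higher. Nfkb2, the gene of an NF-kB subunit precursor, had 146, 130 and 136 CPM in TNFa replicates 4, 5 and 6, against 55.3, 74.6 and 52.1 CPM in PBS replicates 1, 2 and 3 (log2 fold change 1.18 ± 0.15, SE, edgeR adjusted p = 0.0317). Nfkbia, the gene of the inhibitor IkBa, had 201, 239 and 191 CPM in TNFa replicates 4, 5 and 6, against 109, 106 and 76.6 CPM in PBS replicates 1, 2 and 3 (log2 fold change 1.11 ± 0.15, SE, edgeR adjusted p = 0.0379). Neither overlapped between the groups. Nfkb1 had 242 ± 28.8 CPM with TNFa and 370 ± 18.1 with PBS, and Junb 340 ± 34 and 230 ± 41.1 CPM (SD, n = 3 each; edgeR adjusted p = 0.113 and 0.285).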

How the data were processed

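The authors deposited estimated counts per gene for the 6 libraries, made with Partek's expectation-maximization quantification per the name of the deposited table, and not scaled. The submitters' processing notes list CASAVA 1.8.2, STAR and mm10 without roles; the sources used here do not give the annotation, filters or use of strand, so reads of genes that overlap on opposite strands cannot be told apart. The rounded counts entered edgeR 4.0.16 (R 4.3.3), where filterByExpr (minimum count 10, minimum total 15) kept 15719 genes, libraries were scaled by TMM, and the robust quasi-likelihood test compared TNFa with PBS, with Benjamini-Hochberg adjustment over all tested genes and a threshold of 0.05. The SE comes from the fold change and its F statistic. DESeq2 1.42.0 and limma 3.58.1 were alternatives, with other scaling, other filters and each library left out. Gene models are GENCODE M21, which gave the same coordinates as the file for all 10 ligands. The ligands and gene lists were chosen with earlier results of these data known. Named beside the ligands were, per list, every gene past the threshold and the most abundant genes, 2 per list of cell markers and otherwise up to 3; genes outside this rule are marked as named after their values were seen, and some of these genes are not reported here. Pairs of replicates had a chi-square of 15.5 to 114 for each degree of freedom, more than counting noise gives. Separate library preparations can also differ by more than counting noise. The excess therefore cannot show whether libraries came from separate animals or cultures. Each library was entered as 1 replicate.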

Additional observations from a re-analysis of the deposited data

How the results depend on the processing

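No paired analysis was possible because the replicate numbers 1 to 3 (PBS) and 4 to 6 (TNFa) are not shared. The count of called genes, 16 of 15719, was 255 with DESeq2, 3 without a filter on low counts and 25 with a filter at a mean of 5 CPM, and ran from 1 to 67 when 1 library was left out, 67 being without TNFa replicate 5; the cause was not tested. Called ligands numbered 0 in edgeR, 1 with DESeq2 and 0 to 1 with 1 library left out, the 1 being Cxcl10, both with DESeq2 and without TNFa replicate 5 (log2 fold change 3.56 and 3.79). Of 112 ligand values under the alternatives, 103 kept their sign and their side of the threshold, 2 passed it and 7 turned sign. The 7 were Ccl22 with limma-voom (-0.040), Ccl3 without TNFa replicate 4 (-0.048) and without PBS replicate 1 (-0.034), Ccl4 without TNFa replicate 5 (-0.014), TNFa replicate 6 (-0.025) or PBS replicate 3 (-0.13), and Ccl17 without TNFa replicate 6 (0.057). With 1 library left out, the log2 fold change ran from -0.048 to 0.37 for Ccl3, from -0.13 to 0.25 for Ccl4 and from -0.41 to 0.057 for Ccl17. Cxcl10, Cxcl16, Cxcl2, Ccl5 and Xcl1 were higher with TNFa, and Ccl1 lower, under every alternative that tested them; the filter at 5 CPM kept only Ccl3 and Ccl4. Counting error limits the scarce ligands, down to 5 counts for Cxcl10 and 1 for Ccl22 in single libraries.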

Other observations

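Platelet chemokine genes, named after their values were seen, were uneven between libraries. Pf4, the gene of platelet factor 4, had 2.81, 12.3 and 1.21 CPM in TNFa replicates 4, 5 and 6, against 1.19, 1.53 and 0.76 CPM in PBS replicates 1, 2 and 3. Ppbp, which encodes the precursor of a neutrophil-attracting chemokine of platelets, had 0.474, 5.79 and 0.182 CPM in TNFa replicates 4, 5 and 6, against 5.04, 0 and 0 CPM in PBS replicates 1, 2 and 3. Both were highest in TNFa replicate 5. Cxcl12, usually a product of stromal cells, had 0.909 and 1.35 CPM in TNFa replicates 4 and 5 and 0 counts in the other 4 libraries. Ccl6, a myeloid chemokine of mice, had 8.18, 0.972 and 4.57 CPM in TNFa replicates 4, 5 and 6, against 7.12, 13.1 and 8.20 CPM in PBS replicates 1, 2 and 3 (edgeR adjusted p = 0.695).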
